A study of Mus musculus with 28 samples.

Results

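The 9 genes described here encode ubiquitin ligases and transcription factors of muscle protein breakdown: Fbxo32, Trim63, Fbxo30, Fbxo21, Traf6, Foxo1, Foxo3, Foxo4 and Klf15. They were chosen by name, and all 9 were found by Ensembl identifier in each of the 28 libraries, out of 55536 gene identifiers per library. The libraries hold polyadenylated RNA of 3 mouse cell lines of wild-type genotype: C2C12, a muscle line labelled as differentiated myotubes, MLg, a lung fibroblast line, and EO771, a breast cancer line. Each line was grown by itself (C2C12 alone, MLg alone, EO771 alone) or touching a partner line, which gave C2C12 with EO771, EO771 with C2C12, MLg with EO771 and EO771 with MLg. These 7 groups had 4 libraries each, all in DMEM with 10% fetal bovine serum. The labels do not say whether the libraries of a group came from separate cultures or how co-cultured lines were taken apart. Each p-value therefore reflects how much these libraries vary, and that variation may be technical.

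A muscle fibre loses mass when proteins are broken down faster than they are made, and much of that breakdown runs through ubiquitin ligases, which tag proteins for the proteasome. Fbxo32 (atrogin-1, also called MAFbx) and Trim63 (MuRF1) are the classical ligases of muscle atrophy, and both are transcribed under FOXO factors. Insulin-like growth factor signalling through AKT phosphorylates FOXO proteins and keeps them out of the nucleus, a step that RNA levels do not show. Tumours can drive muscle wasting in the body, which is why these genes are read in muscle cells kept with cancer cells.

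Levels are given as CPM, a gene's counts divided by the total counts of its library in M. Total counts ran from 27.6 to 96.5 M per library, and 0 counts allow up to 3 counts, or 0.0311 to 0.109 CPM depending on the library (counting error only). The 14 myotube markers (such as Acta1, Ckm and Myog) summed to 372 to 4943 CPM in C2C12 alone, 5.79 to 13.4 CPM in MLg alone and 9.45 to 10.7 CPM in EO771 alone, and Tnnc2 alone among them averaged under 1 CPM in C2C12. Of 8 epithelial markers, 7 averaged under 1 CPM in EO771 alone, Krt8 being the exception. The 10 fibroblast markers summed to 33983 to 42606 CPM in MLg alone and to 46780 to 58224 CPM in C2C12 alone, so that list does not separate the host lines. Every count was even in 5 co-cultured libraries, which were R5-1 and R6-1 of MLg with EO771 and R3-1, R5-1 and R6-1 of EO771 with C2C12. Replicates are named by the R number and running number of their titles, and what the R number stands for is not stated. The C2C12 libraries numbered R3, namely alone R3-1, alone R3-2 and with EO771 R3-1, stood apart: their markers summed to 372, 685 and 745 CPM, against 2206 to 4943 CPM in the other 5. In bulk RNA, fewer cells of a type and less RNA per cell cannot be told apart.

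On GRCm38, Fbxo32 lies at chr15:58175879-58214932 on the minus strand, Trim63 at chr4:134315120-134329629 (plus), Fbxo30 at chr10:11281330-11298052 (plus), Fbxo21 at chr5:117976730-118010201 (plus) and Traf6 at chr2:101678429-101701669 (plus). Foxo1 lies at chr3:52268336-52353221 (plus), Foxo3 at chr10:42181841-42276755 (minus), Foxo4 at chrX:101254528-101260873 (plus) and Klf15 at chr6:90462576-90475238 (plus). All 9 are protein coding. An antisense gene, Gm15943, covers 2.67% of the exonic bases of Fbxo32, and another, Gm20402, covers 7.78% of those of Foxo1. Reads there cannot be assigned to one gene, since nothing used here states the strand setting of the counts. The other 7 genes share no exonic base with another gene.

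The baseline of the lines was compared first, to place the members before co-culture. Foxo1, one of the FOXO factors that induce atrophy genes, was 2.02-fold higher in C2C12 alone than in MLg alone and close to undetected in EO771. Fbxo32 averaged 92.8 CPM in the myotubes and 94.7 CPM in the fibroblasts, and was 13.1-fold higher in C2C12 than in EO771. Trim63 was found in both host lines and in no library of EO771 alone. Fbxo30, Traf6 and Foxo4 were lower in C2C12 than in EO771, and Fbxo21, Foxo3 and Foxo4 were lower in C2C12 than in MLg.

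Fbxo32 encodes the substrate receptor of an SCF ubiquitin ligase. It stood at 127 CPM in C2C12 alone R2-1, 65.4 in R3-1, 64.7 in R3-2 and 114 in R5-1. The MLg alone libraries R3-2, R5-2, R6-1 and R6-2 gave 76.3, 107, 97.8 and 97.3 CPM, inside the range of the myotubes. The EO771 alone libraries R3-1, R3-2, R5-1 and R6-2 gave 7.57, 6.05, 10.8 and 7.07 CPM, all far below both host lines. The log2 fold change of C2C12 over EO771 was 3.71 (SE 0.241, adjusted p = 4.43e-09), and that over MLg was 0.12 (SE 0.211, adjusted p = 0.641). Without the R3 libraries of C2C12 the second value was 0.47 (adjusted p = 0.0324), so it passed only with those libraries left out.

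Trim63 encodes a RING ligase that sits at the sarcomere and ubiquitinates thick filament proteins. In C2C12 alone it stood at 15.2 CPM in R2-1, 1.18 in R3-1, 1.91 in R3-2 and 18.6 in R5-1. MLg alone held 2.21, 3.29, 3.81 and 3.55 CPM, above both R3 libraries of C2C12 and below its R2 and R5 libraries. All 4 EO771 alone libraries had 0 counts. Set against 3 counts over that group, a floor of 0.0209 CPM, summed Trim63 counts were at least 388-fold higher in C2C12 alone. In MLg alone they were at least 154-fold higher. These bounds cover counting error in EO771 only, not the spread between libraries. The edgeR test of C2C12 against EO771 passed (adjusted p = 5.32e-05). Between the host lines the log2 fold change was 1.64 (SE 0.730, 95% interval 0.02 to 3.26, adjusted p = 0.0725), which did not pass, and without the R3 libraries it was 2.51 (adjusted p = 4.66e-06). It passed in 2 of 12 fits with 1 library left out, those without C2C12 alone R3-1 (adjusted p = 0.0128) or R3-2 (0.0248). Of 6 other alternatives 3 passed: the fit without R3, no low count filter (0.0377) and all 28 libraries in 1 fit (0.0149). Blocking on the R number gave 0.83 (adjusted p = 0.289).

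The proximal promoters of Trim63 and Foxo1 are shown because these are the members at or near 0 counts in EO771 alone. They are the 250 bases before the RefSeq start on GRCm38.p6, from a table that held 7 of the 9 members, without Fbxo32 and Foxo4. Capitals mark each CG dinucleotide and each match to the FOXO core motif GTAAACA, searched on both strands. In the Trim63 window the motif match and 1 CG share a base.
Trim63, chr4:134314870-134315119, plus strand: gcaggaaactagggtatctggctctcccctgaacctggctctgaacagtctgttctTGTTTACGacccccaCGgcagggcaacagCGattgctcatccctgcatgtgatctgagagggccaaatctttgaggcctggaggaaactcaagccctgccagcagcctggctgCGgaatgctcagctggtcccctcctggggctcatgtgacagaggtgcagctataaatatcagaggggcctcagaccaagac
Foxo1, chr3:52268087-52268336, plus strand: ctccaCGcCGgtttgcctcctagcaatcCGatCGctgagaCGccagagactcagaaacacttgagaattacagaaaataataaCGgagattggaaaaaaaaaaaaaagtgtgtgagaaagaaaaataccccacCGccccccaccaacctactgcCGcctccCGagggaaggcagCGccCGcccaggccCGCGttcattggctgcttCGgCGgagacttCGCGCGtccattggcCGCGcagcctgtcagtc
The Trim63 window held 1 match, read on its minus strand, that begins at position -194 counted from the base before the start as -1. The motif was present in 3.17% of 32851 such windows, and in none of the other 6 members with a window. Trim63 had 4 CG dinucleotides and Foxo1 had 20, around a median of 6 over all windows. These are descriptions of the letters, not of bound sites.

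Fbxo30 (MUSA1), Fbxo21 (SMART) and Traf6 are ligases that were linked to muscle atrophy after the classical pair, and Traf6 also carries signals from cytokine receptors to NF-kB. Fbxo30 averaged 32.8 CPM ± 2.01 (SD, n = 4) in C2C12 alone, 41.4 ± 3.62 in MLg alone and 57.4 ± 3.13 in EO771 alone. Traf6 averaged 35.2 CPM ± 2.03, 40.4 ± 4.02 and 58.8 ± 5.19 in the same order. Fbxo21 was highest in the fibroblasts, with 62.8 CPM ± 3.38 against 36.0 ± 1.62 in C2C12 and 39.4 ± 2.37 in EO771. Against EO771, C2C12 had less Fbxo30 (log2 -0.65, SE 0.0745, adjusted p = 2.03e-06) and less Traf6 (-0.58, SE 0.0894, adjusted p = 3.68e-05), while Fbxo21 did not pass (0.03, 95% interval -0.13 to 0.19, adjusted p = 0.728). Against MLg, C2C12 had less Fbxo21 (-0.64, SE 0.0728, adjusted p = 4.35e-06). Traf6 did not pass there (-0.04, adjusted p = 0.717). Nor did Fbxo30 (-0.18, adjusted p = 0.0532). By library totals its 30.5 to 35.2 CPM in C2C12 did not overlap its 38.4 to 46.6 CPM in MLg, while the fold change used TMM scaling. Fbxo30 passed in 8 of 18 alternatives, among them DESeq2 (adjusted p = 0.0418) and the fits without MLg alone R3-2 (0.0328) or C2C12 alone R3-1 (0.0389).

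Among the transcription factors, Foxo1 stood at 37.0, 47.8, 48.5 and 44.5 CPM in C2C12 alone and at 22.1, 23.5, 26.0 and 27.1 CPM in MLg alone. Those ranges do not overlap (log2 1.01, SE 0.129, adjusted p = 1.22e-05). EO771 alone had 1 Foxo1 count in 1 of 4 libraries (R6-2, 0.0281 CPM). The ratio of summed counts of C2C12 to EO771 was 6492 with an exact 95% interval of 1165 to 256457 (counting error only). The edgeR test of C2C12 against EO771 passed for Foxo1 (adjusted p = 2.47e-13). Foxo3, which with Foxo1 induces atrophy and autophagy genes, averaged 81.1 CPM ± 12.8 in C2C12, 128 ± 11.6 in MLg and 79.5 ± 6.60 in EO771. Foxo4 averaged 46.5 CPM ± 7.69, 73.0 ± 11.5 and 68.6 ± 6.73. C2C12 had less Foxo3 (log2 -0.51, adjusted p = 0.000832) and less Foxo4 (-0.49, adjusted p = 0.00254) than MLg, and less Foxo4 than EO771 (-0.41, adjusted p = 0.00643). The last call ended without the R3 libraries (-0.24, adjusted p = 0.106), while Foxo3 against EO771 went from 0.18 (adjusted p = 0.129) to 0.34 (adjusted p = 0.0126).

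Klf15, a glucocorticoid-induced factor that acts with the glucocorticoid receptor on atrophy and amino acid genes, was barely present. Its highest level in any library was 0.937 CPM, in C2C12 with EO771 R5-2, and it had 97 counts over C2C12 alone, 76 over MLg alone and 27 over EO771 alone. It did not pass in C2C12 against MLg (log2 0.42, 95% interval -0.57 to 1.40, adjusted p = 0.449) or against EO771 (1.02, 95% interval -0.06 to 2.10, adjusted p = 0.0775). Without the R3 libraries of C2C12 the second value was 1.45 (adjusted p = 0.028).

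In all, 4 of 9 members passed in C2C12 alone against MLg alone, 1 higher and 3 lower, where 61.9% of 18755 genes passed (31.0% higher, 30.9% lower). Against EO771 alone 6 passed, 3 higher and 3 lower, where 78.2% of genes passed (42.0% higher, 36.2% lower) and the median log2 fold change of all genes was 0.12. Levels can be compared between genes only per length. On the scale of CPM per kb of exon, the myotubes grown alone held most of Fbxo32 (13.3) and Foxo4 (13.3), then Foxo3 (10.7), Fbxo21 (6.50), Fbxo30 (6.31), Foxo1 (5.13), Traf6 (4.46), Trim63 (3.24) and Klf15 (0.125). The SD of Fbxo32 (4.66) is larger than the gaps within the first 3, whereas that of Foxo4 (2.21) is smaller than its gap to Foxo3. In MLg alone the highest were Foxo4 (20.9), Foxo3 (16.9) and Fbxo32 (13.6), and in EO771 alone Foxo4 (19.7), Fbxo30 (11.0) and Foxo3 (10.5). Fbxo32 was at 1.13 CPM per kb in EO771 alone.

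**Figure D1:**
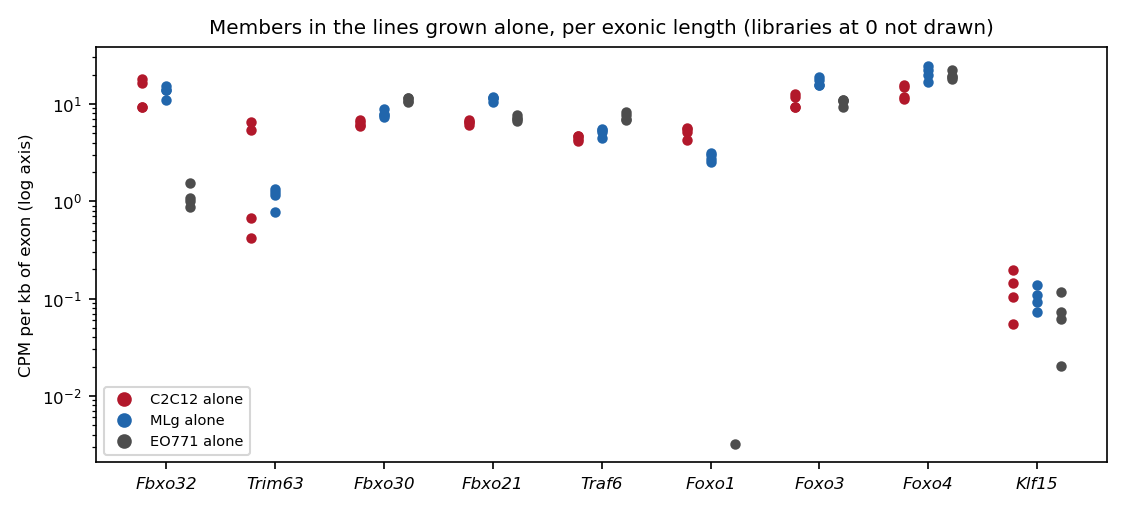
Level of the 9 members in the lines grown alone, as CPM per kb of exon on a log axis, 1 point per library and 4 libraries per line, with libraries at 0 not drawn. Fbxo32 averages 13.3 CPM per kb in C2C12, 13.6 in MLg and 1.13 in EO771, Trim63 has no point in EO771, and Foxo1 has 1 there, at the value of a single count.

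The main question for these genes is whether cancer cells in contact change them in myotubes. In C2C12 with EO771 against C2C12 alone, none of the 9 members passed, by edgeR's quasi-likelihood test with Benjamini-Hochberg adjustment over 16625 genes, none had an unadjusted p under 0.05, and DESeq2 also called 0. Of all genes 2.68% passed, 2.58% higher and 0.0962% lower. The lower genes, 16 in number, became 82 with DESeq2, 75 without C2C12 with EO771 R3-1 and 33 without C2C12 alone R5-1. The 9 log2 fold changes ran from -0.45 to 0.63 with a median of -0.06, beside a median of 0.00 over all genes. EO771 RNA was present in the co-cultured C2C12 libraries. There, 50 genes specific to EO771 stood at a median of 4.06% ± 0.869 (SD, n = 4) of their level in EO771 with C2C12. With partner RNA subtracted by that share, no member passed either.

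Fbxo32 stood at 77.5 CPM in C2C12 with EO771 R3-1, 90.5 in R5-1, 97.6 in R5-2 and 110 in R6-1, within the 64.7 to 127 CPM of the myotubes alone. Its log2 fold change was -0.03 (95% interval -0.51 to 0.46, adjusted p = 0.984). Trim63 stood at 3.59, 7.65, 8.83 and 7.38 CPM in the same order, again within the range of the myotubes alone, at -0.45 (95% interval -2.12 to 1.23, adjusted p = 0.909). The interval of Trim63 spans from well below the level alone to well above it. Among the other ligases, the values were 0.04 for Fbxo30 (95% interval -0.23 to 0.30), -0.15 for Fbxo21 (-0.38 to 0.07) and -0.08 for Traf6 (-0.40 to 0.24).

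The FOXO factors gave log2 fold changes of -0.06 for Foxo1 (95% interval -0.38 to 0.27), -0.18 for Foxo3 (-0.44 to 0.09) and 0.17 for Foxo4 (-0.08 to 0.43). Foxo1 averaged 44.4 CPM ± 7.10 (SD, n = 4) in contact and 44.5 ± 5.26 alone. Klf15 gave the highest value, 0.63 (-0.41 to 1.68), between means of 0.551 and 0.349 CPM. In each of the 9 genes the libraries of the groups overlapped.

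**Figure D2:**
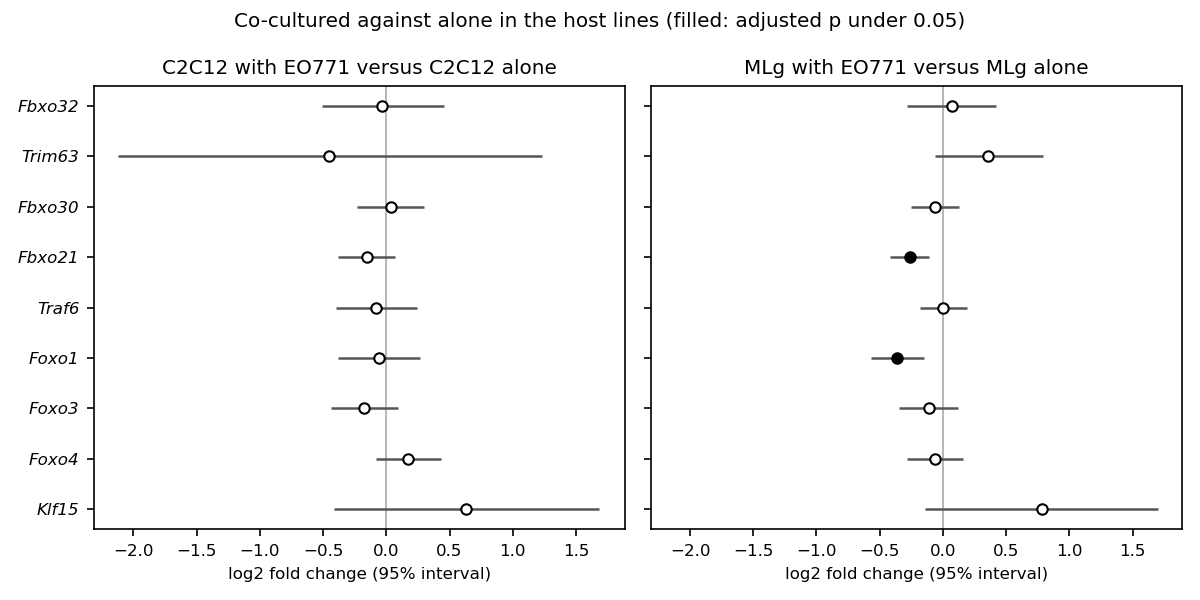
Log2 fold changes of co-cultured over alone with 95% intervals for C2C12 (left) and MLg (right), filled where the adjusted p is under 0.05. In C2C12 every interval includes 0 and that of Trim63, -2.12 to 1.23, is the widest, while in MLg the intervals of Fbxo21 and Foxo1 lie below 0.

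The classical pair differed more between R numbers than between culture conditions. Trim63 stood at 1.18, 1.91 and 3.59 CPM in the 3 R3 libraries of C2C12 and at 7.38 to 18.6 CPM in the other 5, a 5.18-fold difference of means. Fbxo32 stood at 64.7, 65.4 and 77.5 CPM in the R3 libraries and at 90.5 to 127 CPM in the other 5, a 1.56-fold difference. These ranges do not overlap, whereas those of the other 7 members do, Foxo1 averaging 47.0 CPM in the R3 libraries and 42.9 in the rest. The share of all genes that split this way was not computed, so nothing particular to the pair can be read from it. The co-cultured R3 library was higher than its alone counterparts in Trim63, with a log2 ratio of 1.21 (1 library against 2), and the co-cultured R5 libraries were lower, with -1.17 (2 against 1). Fbxo32 went the same ways, 0.25 within R3 and -0.28 within R5. Blocking on the R number put Trim63 at -0.09 (SE 0.426, adjusted p = 0.984), where the main fit had an SE of 0.75. Fbxo32 was then at -0.04 (SE 0.145, adjusted p = 0.981), against an SE of 0.215. Without the R3 libraries, which leaves 2 libraries against 3, Trim63 passed at -1.11 (SE 0.194, adjusted p = 0.0258) and Fbxo32 did not at -0.31 (adjusted p = 0.585).

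The myotube markers moved with Trim63. They summed to 3947, 372, 685 and 4943 CPM in C2C12 alone R2-1, R3-1, R3-2 and R5-1, and to 745, 3191, 2835 and 2206 CPM in C2C12 with EO771 R3-1, R5-1, R5-2 and R6-1. The library order by markers and by Trim63 is nearly the same, with the 3 R3 libraries at the bottom of both. Per 1000 CPM of markers, a scale chosen after the levels were seen, Trim63 stood at 3.86, 3.18, 2.79 and 3.75 CPM alone and at 4.82, 2.40, 3.11 and 3.34 CPM in contact. Fbxo32 on that scale ran from 23.1 CPM in C2C12 alone R5-1 to 176 in R3-1, so it did not keep a like proportion. Outside R3, the markers were lower in every library in contact (2206 to 3191 CPM) than in those alone (3947 and 4943 CPM). The fit without R3, in which Trim63 passed, rests on these same libraries. The R3 libraries lie apart from the rest, so no correlation is given. The part of the marker level in the Trim63 values was not tested.

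**Figure D3:**
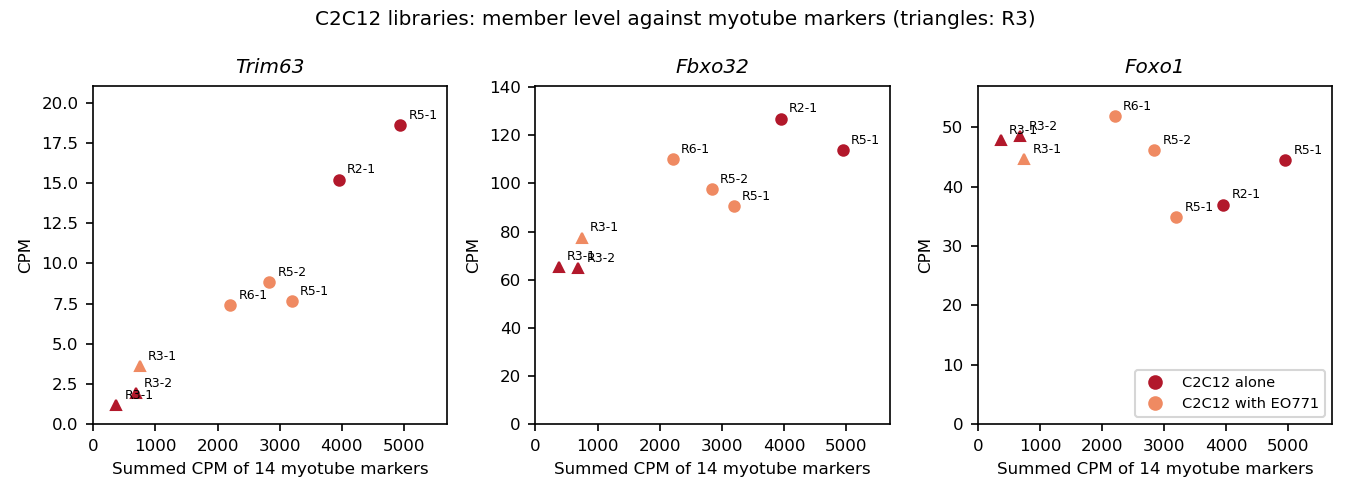
CPM of Trim63, Fbxo32 and Foxo1 in the 8 C2C12 libraries against the summed CPM of 14 myotube markers, each point a library named by its R and running number, with triangles for R3. Trim63 goes from 1.18 to 18.6 CPM along the marker axis from 372 to 4943, while Foxo1 stays between 34.9 and 51.9.

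Genes around the members were read from lists. None of 20 other ubiquitin ligase and proteasome genes of muscle passed in the myotubes (log2 -0.86 to 0.16, median -0.05), none of 20 autophagy and lysosome genes (-0.40 to 0.22, median -0.07) and none of 21 tested of 22 genes of upstream signalling such as Igf1r, Akt1 and Mstn (-0.36 to 0.35, median -0.08). In each of these lists 1 gene had an unadjusted p under 0.05. DESeq2 called none either. Of 7 alternatives other than leaving out 1 library, 1 gave calls in the ubiquitin and proteasome list and 1 in the upstream list. Calls in the autophagy and lysosome list stayed at 0. Of 18 other FOXO target genes, 1 was higher and 1 lower. Of 15 tested of 16 glucocorticoid responsive genes and KLF15 targets 1 was lower, 2 by DESeq2.

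The higher FOXO target was Trib1, a pseudokinase that directs proteins to degradation. It stood at 12.3, 8.07, 8.89 and 12.1 CPM alone and 16.4, 21.0, 16.9 and 23.0 CPM in contact (log2 0.86, SE 0.168, adjusted p = 0.0249), with no overlap. That call ended without the R3 libraries (0.71, adjusted p = 0.153), without any of C2C12 alone R3-1 or R3-2 or C2C12 with EO771 R5-1 or R6-1 (0.75 to 0.81), and with partner RNA subtracted (0.80, adjusted p = 0.101). Cat, the catalase that removes hydrogen peroxide, stood at 90.1, 97.0, 89.7 and 95.9 CPM alone and 69.7, 76.0, 69.5 and 76.0 CPM in contact, again with no overlap (log2 -0.41, SE 0.0858, adjusted p = 0.0366). Its value held between -0.47 and -0.37 with single libraries left out, and the adjusted p was above 0.05 in 7 of those 8 fits, without the R3 libraries (-0.36, adjusted p = 0.393), on blocking by R number (-0.44, adjusted p = 0.2), with partner RNA subtracted (-0.39, adjusted p = 0.118) and with no low count filter (-0.43, adjusted p = 0.0719). Mt2, a metallothionein induced by glucocorticoids and metals, was the lower gene of the third list, at 12.9, 9.40, 10.3 and 12.9 CPM alone and 4.46, 6.03, 4.43 and 6.45 CPM in contact (log2 -1.14, SE 0.178, adjusted p = 0.00686). Its call stood in all 15 alternatives, with adjusted p up to 0.0328.

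MLg fibroblasts give the same contrast in a host line without muscle markers. There 2 of 9 members passed, both lower in contact, where 14.7% of 16823 genes passed (9.89% higher, 4.81% lower). Foxo1 stood at 22.1, 23.5, 26.0 and 27.1 CPM in MLg alone R3-2, R5-2, R6-1 and R6-2 and at 16.4, 19.1, 19.5 and 20.5 CPM in MLg with EO771 R5-1, R6-1, R6-2 and R7-1. No library of one group reached the other (log2 -0.36, SE 0.0965, adjusted p = 0.0267). Fbxo21 stood at 57.7, 64.4, 64.2 and 64.7 CPM alone and 50.3, 53.7, 52.1 and 49.5 CPM in contact, also with no overlap (log2 -0.26, SE 0.0712, adjusted p = 0.0288).

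EO771 RNA was present in the co-cultured MLg libraries: 52 genes specific to EO771 stood there at a median of 8.40% ± 3.19 (SD, n = 4) of their level in EO771 with MLg. With partner RNA subtracted by that share, Foxo1 was at -0.22 (adjusted p = 0.209) and Fbxo21 at -0.21 (adjusted p = 0.122), so neither passed. The Foxo1 call also ended without any of MLg alone R6-1 (-0.35), MLg alone R6-2 (-0.32) or MLg with EO771 R6-1 (-0.38), and when all 28 libraries were fitted together (-0.39, adjusted p = 0.459). The Fbxo21 call ended without any of MLg alone R5-2 (-0.26), R6-1 (-0.26) or R6-2 (-0.25) or MLg with EO771 R6-2 (-0.27).

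The remaining 7 members did not pass in MLg. Fbxo32 averaged 97.5 CPM ± 23.4 (SD, n = 4) in contact and 94.7 ± 13.1 alone (log2 0.07, 95% interval -0.28 to 0.42). Trim63 stood at 3.79, 3.82, 4.86 and 3.78 CPM in contact, of which only R5-1 and R7-1 lie within the alone range, whose highest library was at 3.81. Its log2 fold change was 0.36 (95% interval -0.06 to 0.79, adjusted p = 0.233). Klf15 was at 0.78 (-0.14 to 1.70, adjusted p = 0.239) between means of 0.495 and 0.288 CPM. Fbxo30, Traf6, Foxo3 and Foxo4 lay between -0.11 and 0.00.

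Among the lists in MLg, 3 of 17 tested ubiquitin and proteasome genes were higher (Fbxo31, Psmd11 and Psmc4), and none passed with partner RNA subtracted. None of 20 autophagy and lysosome genes passed, 2 having an unadjusted p under 0.05 and DESeq2 calling 1. Of the 18 FOXO targets 4 were higher and 1 lower, of 15 glucocorticoid and KLF15 genes 3 higher and 1 lower, and of 21 upstream genes 2 lower. Trib1 was higher here too, at 16.3, 11.8, 15.4 and 14.6 CPM alone and 40.7, 30.5, 19.8 and 30.9 CPM in contact (log2 1.09, SE 0.183, adjusted p = 0.00171), and passed in all 15 alternatives. Cat (-0.15, adjusted p = 0.208) and Mt2 (0.16, adjusted p = 0.675) did not pass.

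The difference between the responses of the host lines was tested itself. None of the 9 members passed, none had an unadjusted p under 0.05 and DESeq2 called 0, while 1.84% of 18647 genes passed (0.778% higher, 1.06% lower). The differences, C2C12 response minus MLg response, were -0.78 for Trim63 (95% interval -2.51 to 0.96), 0.31 for Foxo1 (-0.09 to 0.71), 0.12 for Fbxo21 (-0.14 to 0.38) and -0.09 for Fbxo32 (-0.70 to 0.53). Without the R3 libraries of C2C12, Trim63 passed at -1.48 (SE 0.274, adjusted p = 0.00789), and on blocking by R number it was at -0.09 (adjusted p = 0.983). The difference was -1.29 for Mt2 (adjusted p = 0.0351), a call that ended in 9 of 24 alternatives, and -0.22 for Trib1 (adjusted p = 0.78).

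**Figure D4:**
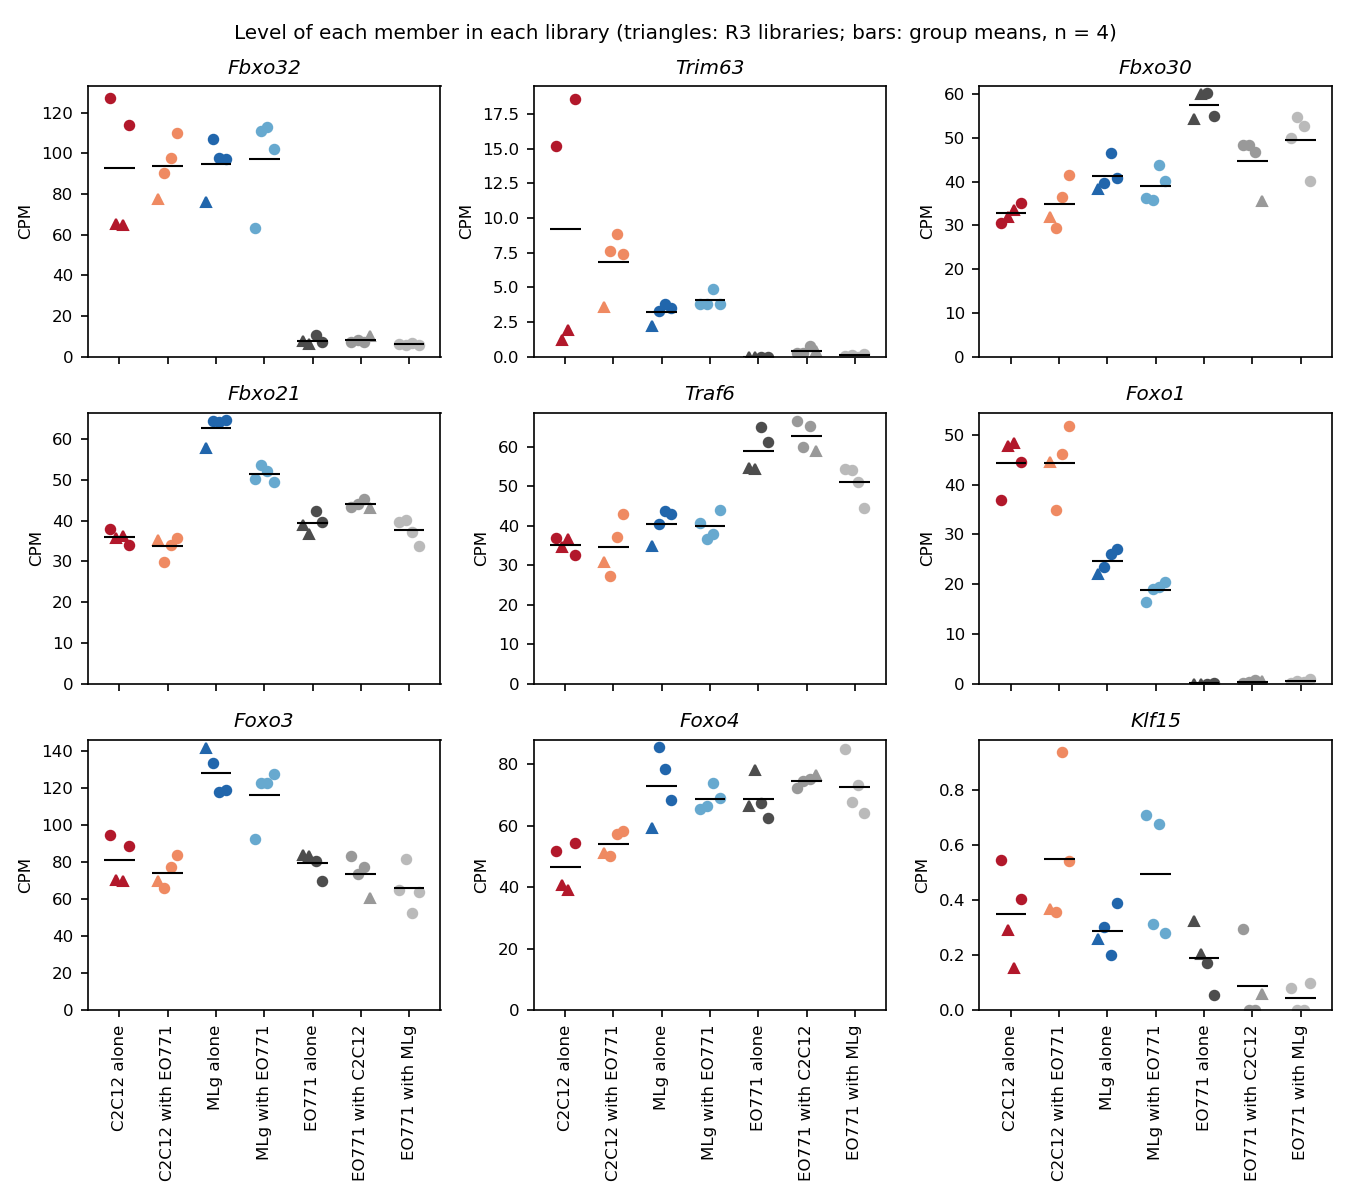
CPM of each member in each of the 28 libraries by group, with triangles for R3 libraries and bars at the mean of 4. Fbxo32 lies from 63.1 to 127 CPM in host libraries and at or under 10.8 in EO771 libraries, Trim63 is low in the 3 R3 libraries of C2C12, and Foxo1 is near 0 in all EO771 groups.

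On the cancer cell side the question is whether EO771 takes on any of these genes in contact. In EO771 with C2C12 against EO771 alone, 7 members had counts enough to test and 2 passed, 1 higher and 1 lower, where 33.0% of 15794 genes passed (18.7% higher, 14.3% lower). Fbxo30 was the lower one, at 54.3, 59.9, 60.3 and 55.1 CPM in EO771 alone and 48.3, 48.3, 46.8 and 35.5 CPM in EO771 with C2C12 R5-1, R5-2, R6-1 and R3-1. The groups did not overlap (log2 -0.43, SE 0.123, adjusted p = 0.0113), and the call stood with each library left out (-0.48 to -0.33) and with partner RNA subtracted (-0.42). Fbxo21 was higher by CPM in every co-cultured library (43.1 to 45.3, against 36.7 to 42.4 alone), and with TMM scaling its log2 fold change was 0.08 (adjusted p = 0.544). Fbxo32 (-0.02), Traf6 (0.02), Foxo3 (-0.18) and Foxo4 (0.05) did not pass.

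Foxo1 was the higher one, at 0.0844, 0.217, 0.760 and 0.524 CPM in EO771 with C2C12, all above EO771 alone (adjusted p = 0.00249). The ratio of summed counts, 50 against 1, was 52.0 with an exact 95% interval of 8.91 to 2093 (counting error only). Every count was even in R5-1, R6-1 and R3-1 of this group, which neither this interval nor the Trim63 bound below allows for. With even counts halved, Foxo1 passed at a log2 fold change of 5.04 (adjusted p = 0.00282). Its mean of 0.396 CPM is 0.893% of that in the C2C12 libraries of the shared culture, and 270 genes specific to C2C12 stood at 0.969% ± 0.377 (SD, n = 4) of theirs. With partner RNA subtracted Foxo1 had too few counts to test. Trim63 had 56 counts against 0, at 0.253, 0.290, 0.760 and 0.408 CPM, at least 19.4-fold higher by summed counts. It did not pass the low count filter of that fit, and was called with no filter (adjusted p = 2.75e-06) and when the 28 libraries were fitted together (adjusted p = 0.00243). Its mean was 6.23% of the C2C12 level, above the 0.969% of C2C12-specific genes and within the 5.36% to 12.0% at which 13 myotube markers stood in the same EO771 libraries (median 8.99%). The 14 markers summed to 132, 196, 376 and 91.6 CPM there, against 9.45 to 10.7 CPM in EO771 alone. R6-1 was highest in the markers, in Trim63 and in Foxo1. R3-1 was lowest in the markers but above R5-1 and R5-2 in Trim63 (0.408 CPM) and in Foxo1 (0.524 CPM).

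EO771 with MLg shares its 4 control libraries with the comparison above. Here 7 members were tested and 1 passed, Foxo1, higher, where 9.59% of 15794 genes passed (5.99% higher, 3.60% lower). Foxo1 stood at 0.0414, 0.452, 0.327 and 0.833 CPM in EO771 with MLg R6-1, R5-1, R6-2 and R7-1 (adjusted p = 0.0048). The ratio of summed counts, 63 against 1, was 56.9 (exact 95% interval 9.85 to 2284, counting error only). The Foxo1 mean was 2.19% of the MLg level, beside 1.54% ± 0.39 (SD, n = 4) for 263 genes specific to MLg. With partner RNA subtracted Foxo1 had too few counts to test here too. Trim63 stood at 0.0828, 0.120, 0 and 0.196 CPM, 2.46% of the MLg level, and the 14 myotube markers at 7.82 to 12.6 CPM. Fbxo32 stood at 6.12, 5.78, 6.59 and 5.83 CPM, overlapping the 6.05 to 10.8 CPM of EO771 alone (log2 -0.36, 95% interval -0.73 to 0.01, adjusted p = 0.254). Subtracting partner RNA, which at the share of MLg-specific genes amounts to 1.5 CPM of Fbxo32, gave -0.74 (adjusted p = 0.0326). Fbxo30 (-0.20), Fbxo21 (-0.05), Traf6 (-0.19), Foxo3 (-0.25) and Foxo4 (0.09) did not pass. Foxo3 passed without EO771 with MLg R5-1 (-0.39, adjusted p = 0.0413).

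The order of the 7 groups differed by gene. Fbxo32 had 4 host groups between 92.8 and 97.5 CPM that overlap one another, then a gap to the EO771 groups at 6.08 to 8.16 CPM. Trim63 went from 9.22 CPM ± 8.97 (SD, n = 4) in C2C12 alone through 6.86 ± 2.27 in C2C12 with EO771, 4.06 ± 0.533 in MLg with EO771 and 3.22 ± 0.704 in MLg alone, neighbours that overlap, to the EO771 groups. Foxo1 had separate levels in C2C12 (44.5 and 44.4 CPM), MLg (24.7 alone, 18.9 in contact) and EO771 (0.413 or less), with a gap at each step other than within C2C12 and between the co-cultured EO771 groups. Fbxo30 and Traf6 had their highest means in EO771 groups and their lowest in C2C12 groups. Fbxo21 and Foxo3 had their highest means in MLg alone, and Foxo4 its lowest in C2C12 alone (46.5 CPM ± 7.69) and C2C12 with EO771 (54.2 ± 4.20), both apart from the other 5 groups.

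The genes whose pattern over the 7 group means was most like that of a member were found by the root mean square difference of centred log2(mean CPM + 1), among 12093 genes with at least 5 CPM in some group. For Fbxo32 they were Pxylp1 (0.162), Cbr3 (0.178) and Tns3 (0.190), for Trim63 Rbpj-ps3 (0.141), Ganc (0.142) and Mtch1 (0.148), and for Foxo1 Tigd2 (0.111), Alcam (0.131) and Cntln (0.147). Nearest to Fbxo30 was Med17 (0.032), to Fbxo21 Zfp870 (0.036), to Traf6 Chsy1 (0.037), to Foxo3 Inpp5f (0.066) and to Foxo4 Uggt1 (0.037). Adding 1 flattens differences among levels near or below 1 CPM. No match is therefore given for Klf15, whose means were 0.551 CPM or less, and those of Trim63 and Foxo1 say little about the EO771 groups. Group means hide the split of Trim63 by R number, and the 7 means share cell lines, so likeness here is a description only.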

How the data were processed

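The authors deposited 1 table of raw read counts per gene for each of 28 libraries, with no normalization. Per the labels' protocols, RNeasy extraction was followed by TruSeq stranded mRNA library preparation. The tools listed in the submitters' processing notes are STAR 2.7.10a, Subread 2.0.1, featureCounts, fastp and DESeq2, with no role or order. Not given in the sources used here are the genome build, its annotation and the strand setting. All 55536 identifiers were found in GENCODE M21 (GRCm38), which gave symbols and coordinates. Groups followed the labels. The file names of EO771 with C2C12 R5-1 and R5-2 carry each other's title, and the recorded assignment was followed. No replicate pair of 42 was identical or within sampling noise (lowest chi-square per degree of freedom 13.4, genes with at least 20 counts).

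CPM used library totals, while fold changes used the scaling of each fit. A fold change can therefore differ from the ratio of mean CPM, even in sign. The main test was edgeR 4.0.16 (R 4.3.3) with its quasi-likelihood F test, 2-sided, TMM scaling and genes kept by filterByExpr (minimum count 10, minimum total 15). P-values were adjusted by Benjamini-Hochberg over every gene tested, and a call is an adjusted p under 0.05. Every adjusted p comes from this test unless DESeq2 is named. Each host line was fitted alone, the 16 host libraries together for the difference of responses, the 12 EO771 libraries together, and the 12 libraries of lines grown alone together. Only the C2C12 and MLg fits were tried on simulated counts, drawn independently for each library without a shared effect of the R number.

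Alternatives were RLE size factors, DESeq2 1.42.0, no filter, all 28 libraries in 1 fit, the R number as a block, even counts halved, partner RNA subtracted, the C2C12 R3 libraries left out, and each library left out. A partner-specific gene had a mean of at least 10 CPM in the partner line, both co-cultured and grown alone. It had at most 0.02 CPM in the receiving line grown alone. For subtraction, the partner's mean CPM times the median share of those genes was taken off each library. Same-numbered C2C12 libraries deviated together (4 pairs, correlations 0.400 to 0.716), so the R number pairs them by that check. The main C2C12 fit did not use that pairing, so its intervals include the spread between R numbers. EO771 (12 pairs, 0.0514 to 0.359) and MLg (5 pairs, -0.322 to 0.241) did not all exceed 0.1.

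Members and lists were chosen with earlier results of these data known. Named from the lists were up to 3 genes each, with the largest called change in C2C12 with EO771 at a mean of at least 5 CPM and no overlap. The called genes of 1 list in MLg, Fbxo31, Psmd11 and Psmc4, were named after their values were seen.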

Additional observations from a re-analysis of the deposited data

Results flagged for a closer look

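In C2C12 with EO771 against alone, Trim63 and Fbxo32 were both higher within R3 and both lower within R5. The log2 ratio within R3 minus that within R5 was 2.38 for Trim63 and 0.53 for Fbxo32. Each rests on 3 libraries per R number, and the difference was not tested.

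In 5 of 63 sets of 4 libraries, 1 library lay far from the other 3, and chance gives about 1 in 20. They were Trim63 in MLg with EO771 R6-2 (4.86 CPM, highest), Fbxo30 in EO771 with C2C12 R3-1 (35.5 CPM, lowest), Fbxo21 in MLg alone R3-2 (57.7 CPM, lowest), Foxo3 in MLg with EO771 R5-1 (92.7 CPM, lowest) and Foxo1 in EO771 alone R6-2 (0.0281 CPM, highest, the single count of that group). The Fbxo30 call in EO771 with C2C12 stood without R3-1, and the Fbxo21 call in MLg stood without R3-2.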

How the results depend on the processing

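Over 1074 pairs of a member's fold change and an alternative, 1039 kept their side of the threshold, 11 lost a call, 24 gained one and 0 turned in sign while called. These pairs leave out Foxo1 in EO771 with partner RNA subtracted, where it could not be tested. The count of members called in C2C12 with EO771 against alone, 0, became 1 without the C2C12 R3 libraries (Trim63), as did that for the difference of responses. In MLg the count of 2 became 1 with all 28 libraries in 1 fit, 0 with partner RNA subtracted, and 0 to 2 with single libraries left out. In EO771 with C2C12 the count of 2 became 1 with partner RNA subtracted, since Foxo1 was no longer testable, 3 with no low count filter and with all 28 libraries in 1 fit, where Trim63 was tested and called, and 2 to 3 with single libraries left out. In EO771 with MLg the count of 1 became 2 with no low count filter, and 1 to 2 with single libraries left out. With partner RNA subtracted that count stayed 1, but the called member was Fbxo32, and Foxo1 was no longer testable. The cause was not tested. With the R number as a replicate block, Trim63 in C2C12 was at -0.09 and no call on a member changed in any comparison.

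Calls over all genes moved by more than 1.5 times in some settings. In C2C12 with EO771 the 445 genes became 749 with DESeq2, 1176 with all 28 libraries in 1 fit and 132 with partner RNA subtracted. The 16 lower among them became 94 with all 28 libraries, 36 without the R3 libraries, 6 with partner RNA subtracted and 4 to 75 with single libraries left out. In MLg the 2472 became 775 with partner RNA subtracted, 1627 without MLg alone R6-1 and 1569 without MLg alone R6-2. For the difference of responses the 343 became 752 with DESeq2, 549 with all 28 libraries and 39 with partner RNA subtracted. In EO771 with MLg the 1515 became 860 with partner RNA subtracted. At the depth of these libraries, differences in Klf15 and, in EO771, in Trim63 and Foxo1 rest on few counts.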
